A study of Mus musculus with 2 samples.

Results

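Late endosome membrane genes were the 90 genes, of 28944 in the peak table, whose Gene Ontology (GO) terms held late endosome membrane but none of the terms cell-cell junction, basolateral plasma membrane or actin binding. GO terms were given for 13687 genes, and 93 of these carried the late endosome membrane term, so that 3 were left out by the other terms. Hearts of mice aged 4 days were profiled by ATAC-seq, an assay of open chromatin based on insertions of the Tn5 transposase. The Wtap-CKO library came from the pooled hearts of 6 mice with a cardiomyocyte-specific knockout of Wtap, and the Wtapflox/flox library from those of 7 mice whose Wtap alleles carry flox sites. The product of Wtap belongs to the machinery that writes N6-methyladenosine into RNA. The labels used here do not name the promoter that drives the deletion, and the other cells of the heart keep the gene. Each genotype has a single library, so differences have no replicate check, no test was run, and statements compare these libraries only. The genes were chosen by their terms with earlier results of these data known, so the values of the list are a description.

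Late endosomes are the compartment in which cargo taken up from the cell surface, or delivered by autophagy, is sorted before it is broken down in lysosomes. ESCRT complexes pinch cargo into internal vesicles and so form multivesicular bodies. Rab GTPases, the tethering complexes HOPS and CORVET, and SNARE proteins then dock and fuse membranes, while the proton pump V-ATPase acidifies the lumen and the Ragulator complex anchors nutrient signalling through mTORC1 to the outer face. Sterol transfer proteins move cholesterol out of the compartment. In heart muscle this route clears damaged mitochondria and proteins, and some inherited defects of it are known to cause cardiomyopathy.

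The table names genes by Ensembl IDs only, and these matched no entry of the reference gene table, so the genes below are described by position (GRCm39) and by their GO terms in the file. For the same reason Wtap itself and cell type markers by symbol were not looked up, and no sequence is shown. The chosen genes also carried related terms, which follows largely from their choice by a term of this compartment. Of the 90, 81 (90%) also had the term endosome, against 3.40% of all genes with GO terms. The lysosomal membrane term was held by 57 of them (63.3%), against 1.29% of genes with terms. They lay on 20 chromosomes, with 11 of them on chromosome 11.

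The Wtap-CKO library held 9816384 reads in 83549 peaks and the Wtapflox/flox library 9835753, with medians of 67 and 64 reads per peak. Counts were scaled to the library's reads in peaks (CPM), and a log2 ratio, Wtap-CKO over Wtapflox/flox, was formed with 0.5 CPM added to both, which pulls weak ratios towards 0. Each interval is an exact conditional binomial (Clopper-Pearson) 95% interval of the counts, without the added 0.5 CPM. It covers counting error only, not the difference between pools of animals or preparations. In hearts pooled as whole tissue, fewer nuclei of a type and less open DNA per nucleus cannot be told apart.

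Scaled to reads in peaks, the promoters of the late endosome membrane genes had a median ratio near 0, slightly above the median of genes in general. Of the 90 genes, 86 had a peak within 1000 bp of an annotated start, and their median log2 ratio was -0.00076, with 43 above 0 and 43 below. All 16298 genes with such a peak had a median of -0.057, and the 11494 with GO terms one of -0.061. Together the promoter peaks of the 86 genes held 29939 Wtap-CKO reads and 30688 Wtapflox/flox reads, a pooled log2 ratio of -0.033 (interval -0.056 to -0.0098). The pooled promoter ratio of all genes, -0.049, lay within that interval, and that of genes with GO terms was -0.064. Over a floor of 9.67 mean CPM, the 25th percentile of all genes, 77 remained. In Wtap-CKO, 0 of these 77 stood 1.5-fold or more higher and 1 stood 1.5-fold or more lower. Among all 12223 genes over the floor 1.63% were that much higher, 2.52% that much lower and 4.15% either, so the counts of the list lie near the background. Intervals wholly above 0 were found for 9 genes of the list (11.7%) and wholly below 0 for 17 (22.1%). The background shares over the floor were 12.5% above and 25.7% below. The authors' RPM, which use another constant per library, lowered list and background alike, to medians of -0.22 for the list and -0.27 for all genes. By the RPM, 0 of the 77 were 1.5-fold higher and 7 (9.09%) lower, against 0.573% and 11% of all genes over the floor. Ratios near 0 therefore change sign with the scaling, and are to be read against the background.

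**Figure D1:**
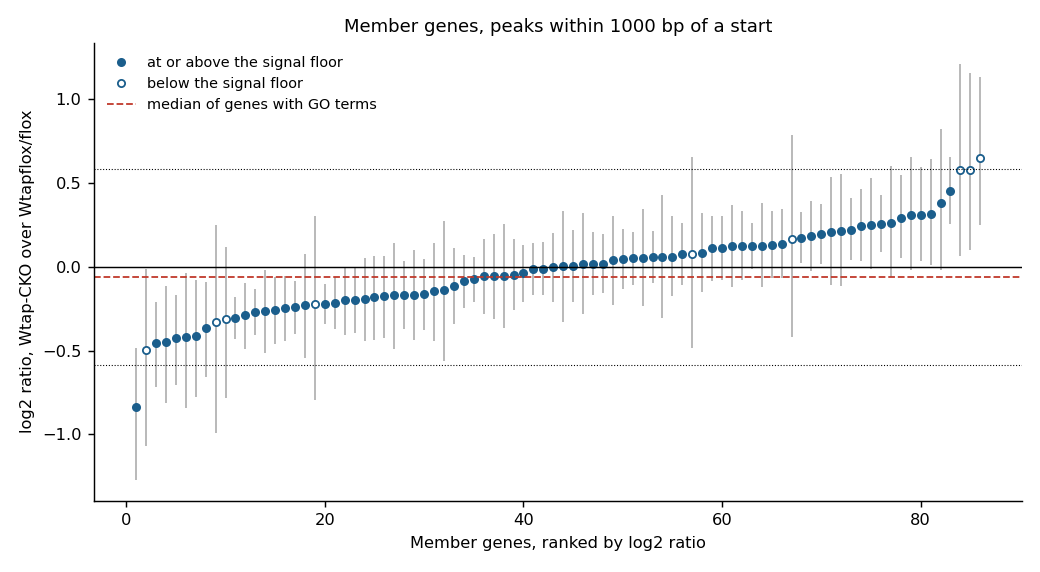
The Wtap-CKO to Wtapflox/flox log2 ratio (vertical axis) for the 86 late endosome membrane genes with a peak within 1000 bp of a start, ranked by the ratio. Points are genes, grey bars are 95% counting intervals, open points are below the signal floor and dotted lines mark 1.5-fold. 43 genes lie on each side of 0, and 1 filled point lies beyond a dotted line, at -0.84.

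Scaled to reads in peaks, the ESCRT genes differed in both directions. The single promoter past 1.5-fold belonged to an ESCRT-III gene on chromosome X (ENSMUSG00000031242), a subunit of the complex that constricts and cuts the necks of internal vesicles. Its peak over the start (106859792 to 106860152) held 85 Wtap-CKO reads and 156 Wtapflox/flox reads, a log2 ratio of -0.84 (interval -1.27 to -0.48), and the authors' deposited table gives -1.08 for it. The other 6 ESCRT-III promoters ran from -0.22 to 0.32. The highest, on chromosome 16 (65359195 to 65359902), had 189 Wtap-CKO reads against 151 Wtapflox/flox reads (0.32, interval 0.01 to 0.65). The group of 7 had a median of 0.12 (-0.091 by the authors' RPM), with 4 above 0 and 3 below, or 1 and 6 by the RPM. Its pooled reads, 1570 for Wtap-CKO and 1589 for Wtapflox/flox, gave -0.015. ESCRT-I recognises ubiquitin-marked cargo. Among all genes with a promoter peak 57.4% were below 0, and of the 7 ESCRT-I promoters of the list 5 were (71.4%). The median of the 7 was -0.17. By the authors' RPM it was -0.39, with 6 of the 7 below 0, against a median of -0.27 for all genes. The lowest of the 7, on chromosome 8 (40964489 to 40965470), had 252 Wtap-CKO reads against 304 Wtapflox/flox reads (-0.26, interval -0.51 to -0.02). In contrast, an ESCRT-I gene on chromosome 15 (76509919 to 76510659) had 241 Wtap-CKO reads and 194 Wtapflox/flox reads (0.31, interval 0.04 to 0.60). The ESCRT-II gene of the list (chromosome 8, 22682653 to 22683380) had 357 reads in each library.

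Genes of the tethering complexes lay on both sides of 0. HOPS tethers late endosomes to lysosomes and CORVET acts on early endosomes, and the complexes share core subunits. The 6 members with either term had a median of 0.17, with 4 above 0 and 2 below, or 3 and 3 by the authors' RPM. The 4 with the CORVET term were above 0, from 0.14 to 0.38 (from -0.079 to 0.18 by the RPM, with 1 below 0), and pooled 995 Wtap-CKO reads and 852 Wtapflox/flox reads (0.23, interval 0.09 to 0.36). Taken singly, only 1 of the 4 had an interval wholly above 0. The highest of the 4, which also has the HOPS term (chromosome 9, 44272702 to 44273236), had 113 Wtap-CKO reads against 86 Wtapflox/flox reads, with an interval that spans 0 (-0.02 to 0.82). A CORVET gene on chromosome 7 (79919040 to 79919915) had 302 Wtap-CKO against 246 Wtapflox/flox reads (0.29, interval 0.05 to 0.55). In contrast, a HOPS gene with a microtubule binding term on chromosome 13 (18901297 to 18901727) had 92 Wtap-CKO reads and 125 Wtapflox/flox reads (-0.42, interval -0.84 to -0.04). The 5 HOPS genes outside the list ran from -0.60 to 0.06, and 1 of them was past 1.5-fold lower, so that all 10 HOPS genes split into 5 above 0 and 5 below, with a median of 0.0083. By the authors' RPM these 10 split into 2 above 0 and 8 below, with a median of -0.21. The 2 other CORVET genes with promoter peaks had -0.021 and 0.026.

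Fusion and GTPase genes spread on both sides of 0. A SNARE gene on chromosome 11 (67857147 to 67857607), whose product would act in endosome to lysosome transport by its terms, had the highest promoter ratio of all 86, 0.65 (interval 0.25 to 1.13). It held 114 Wtap-CKO reads and 71 Wtapflox/flox reads and lay just under the floor. The 4 genes with a GTPase activity term ran from -0.36 to 0.25. The lowest (chromosome 6, 88022078 to 88022496), with terms for protein targeting to lysosomes and autophagosome assembly, had 185 Wtap-CKO reads against 240 Wtapflox/flox reads (interval -0.66 to -0.09). The highest (chromosome 11, 48762109 to 48763315), with an immune term, had 254 Wtap-CKO against 213 Wtapflox/flox reads, with an interval that spans 0 (-0.01 to 0.53).

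Among the highest and lowest promoters were single genes with terms for acidification, nutrient signalling or transport. As a group, the 6 promoters with an ion transport term had a median of -0.0086, with 3 above 0 and 3 below. The highest promoter over the floor (ENSMUSG00000028475, chromosome 4, 43728336 to 43730019) is of a gene with terms for the lysosomal V-ATPase and the response to amino acids. Its 2 peaks held 480 Wtap-CKO reads and 351 Wtapflox/flox reads, a log2 ratio of 0.45 (interval 0.25 to 0.66), short of 1.5-fold. A gene for the transport of iron, copper and manganese (chromosome 15, 100320349 to 100321349) had 223 Wtap-CKO reads and 308 Wtapflox/flox reads (-0.45, interval -0.72 to -0.21), short of 1.5-fold on the low side. A manganese and calcium transporter gene of the Golgi on chromosome 5 had 398 Wtap-CKO reads and 336 Wtapflox/flox reads (0.24). A leucine transport gene with the Ragulator term on chromosome 13 (112797013 to 112804150) had 399 Wtap-CKO against 490 Wtapflox/flox reads (-0.29, interval -0.49 to -0.10), whereas the other Ragulator member, on chromosome 3, had 188 Wtap-CKO against 186 Wtapflox/flox reads. The 20 genes with the other V-ATPase terms, none of them in the list, had 16 promoters with a median of -0.0014 and 0 past 1.5-fold among the 14 over the floor. The 6 genes with sterol binding or transport terms had a promoter median of 0.01, between -0.23 and 0.26.

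Other promoters at the ends of the list had varied roles. At the low end were a gene with melanosome transport and phosphoinositide binding terms on chromosome 1 (121 Wtap-CKO reads against 167 Wtapflox/flox reads, -0.45), and a gene of tetraspanin-enriched membrane with a term for lower Notch signalling on chromosome 10 (121 Wtap-CKO against 163 Wtapflox/flox reads, -0.41). A pair of genes on chromosome 11 lay close to each other, an autophagosome membrane gene at 75345153 to 75345901 with 205 Wtap-CKO reads against 278 Wtapflox/flox reads (-0.43), and a gene for multivesicular body size at 75400523 to 75401908 with 941 Wtap-CKO against 1166 Wtapflox/flox reads (-0.31, interval -0.43 to -0.18). A gene of the MHC class II complex, which presents peptides loaded in this compartment, had 788 Wtap-CKO reads and 952 Wtapflox/flox reads (chromosome 17, 34338120 to 34354822, -0.27, interval -0.41 to -0.13). The other MHC class II member had 56 Wtap-CKO against 53 Wtapflox/flox reads (0.08, interval -0.49 to 0.65). At the high end, a lipid transporter gene with an ATP binding term on chromosome 11 had 171 Wtap-CKO against 142 Wtapflox/flox reads (0.26, interval -0.06 to 0.60), and a gene of MHC class I antigen processing on chromosome 1 had 168 Wtap-CKO against 135 Wtapflox/flox reads (0.31, interval -0.02 to 0.66). A gene of an AP-type adaptor coat on chromosome 2 (131051803 to 131052638) had 637 Wtap-CKO against 534 Wtapflox/flox reads (0.26, interval 0.09 to 0.43).

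By signal per length, mean CPM per kilobase of peak, the most open promoter was of a gene with a protein kinase activity term on chromosome 11 (90139892 to 90140560). It had 99.6 CPM per kilobase as the mean of both libraries, against a median of 32.3 for the 86 genes and 29.6 for all genes. It held 599 Wtap-CKO reads and 710 Wtapflox/flox reads (-0.24, interval -0.40 to -0.08). The next were an ESCRT-III gene on chromosome 7 with 84.7 CPM per kilobase and 371 Wtap-CKO against 428 Wtapflox/flox reads, the multivesicular body size gene with 77.3, an endopeptidase gene of the Golgi and lysosome on chromosome 4 with 75.4 (666 Wtap-CKO against 644 Wtapflox/flox reads), and the adaptor coat gene with 71.3.

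**Figure D2:**
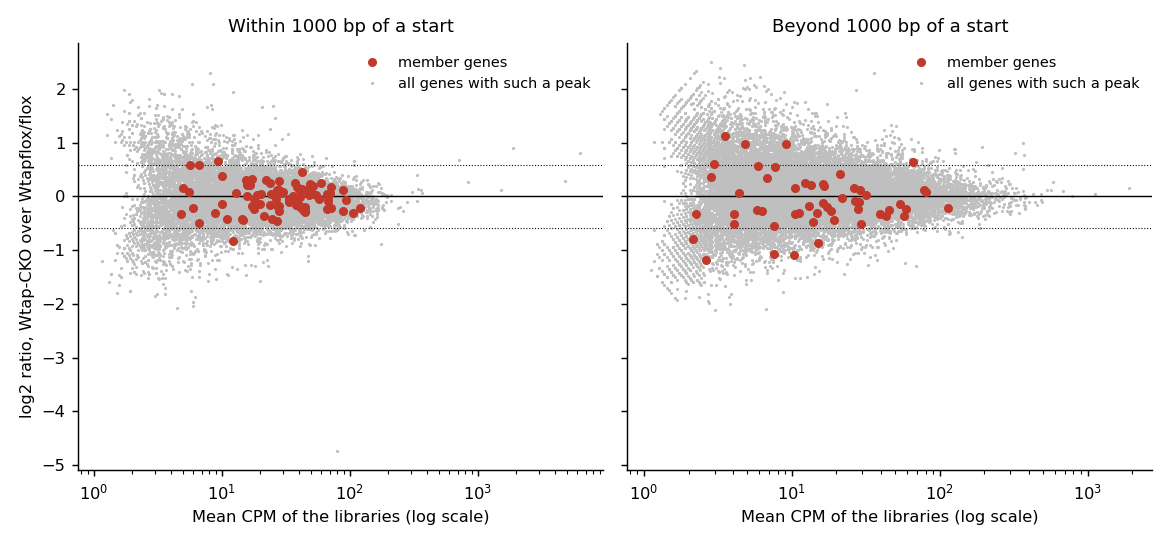
The Wtap-CKO to Wtapflox/flox log2 ratio (vertical axis) against the mean CPM of the libraries (horizontal log axis) for late endosome membrane genes (red) and all genes (grey), from peaks within 1000 bp of a start (left) and beyond (right). Dotted lines mark 1.5-fold. The ratios of all genes widen as the signal falls, and the red points stay within the grey cloud on both sides.

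Away from the starts the list was lower in Wtap-CKO, while genes in general were higher. Peaks beyond 1000 bp of a start were annotated to 53 of the 90 genes, with a median log2 ratio of -0.17, against 0.065 for all 22022 genes with such peaks and 0.070 for the 8713 with GO terms. Of the 53 genes, 21 lay above 0 and 32 below. Their pooled totals were 11391 reads for Wtap-CKO and 12114 for Wtapflox/flox (-0.086, interval -0.123 to -0.049). Over a floor of 5.10 mean CPM there were 43 genes, of which 2 (4.65%) were at least 1.5-fold higher and 3 (6.98%) at least 1.5-fold lower, against 9.86% and 4.77% of all 16516 genes over the floor. Among genes with GO terms the shares were 8.89% and 4.1%. These counts of 2 and 3 genes are small. Intervals wholly above 0 were found for 5 of the 43 (11.6%), against 27% of all genes over the floor, and wholly below 0 for 13 (30.2%), against 16.7%. Among the 49 genes of the list with peaks of both kinds, the promoter ratio exceeded the distant one in 24 (49.0%), against 35.5% of such genes with GO terms. By the authors' RPM, the medians were -0.39 for the list and -0.15 for all genes, so the sign of the background turned with the scaling, with the list below it under both. By the RPM 1 of the 43 was 1.5-fold higher and 8 (18.6%) lower, against 5.13% and 12.4% of all genes over the floor.

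**Figure D3:**
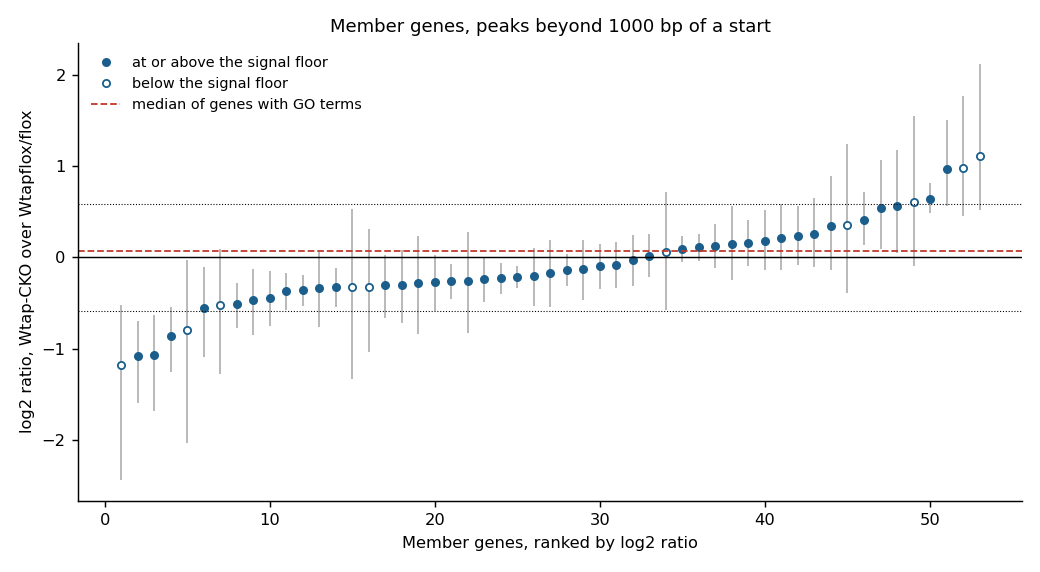
The Wtap-CKO to Wtapflox/flox log2 ratio (vertical axis) for the 53 late endosome membrane genes with peaks beyond 1000 bp of a start, ranked by the ratio. Points are genes, grey bars are 95% counting intervals, open points are below the signal floor, dotted lines mark 1.5-fold and the dashed line marks the median of genes with GO terms. 32 genes lie below 0 and 21 above.

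The 3 genes past 1.5-fold lower had 1 or 2 such peaks each. A gene with tumor necrosis factor and p53 apoptosis terms (ENSMUSG00000004071) had a peak at -2030 bp from a start on chromosome 16 (4591406 to 4591900) with 6.42 CPM in Wtap-CKO and 14.1 CPM in Wtapflox/flox, or -1.08 on the log2 scale (interval -1.59 to -0.70). Its promoter held 536 Wtap-CKO against 530 Wtapflox/flox reads. A cholesterol binding gene of membrane contact sites on chromosome 13 had 46 Wtap-CKO reads against 102 Wtapflox/flox reads in a peak at -1579 bp from a start (19553704 to 19554067, -1.07, interval -1.68 to -0.63), while its promoter peaks held 469 Wtap-CKO against 435 Wtapflox/flox reads. The third, a regulator of phosphatidylinositol 3-kinase in the passage of early to late endosomes (chromosome 6), had 2 peaks in intron 6 of 14. They held 103 Wtap-CKO reads and 192 Wtapflox/flox reads (-0.86, interval -1.26 to -0.54), and both were lower, at -0.69 and -0.98, whereas the promoter held 326 Wtap-CKO against 340 Wtapflox/flox reads. At their promoters the ratios of these 3 genes lay between -0.06 and 0.11, with intervals that span 0.

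Short of 1.5-fold, the Ragulator member on chromosome 3 had 59 Wtap-CKO reads and 89 Wtapflox/flox reads in its single distant peak (-0.55, interval -1.09 to -0.10). A GTPase gene with a term for axonal cargo transport on chromosome 1 had 235 Wtap-CKO against 338 Wtapflox/flox reads (135084016 to 135084523, -0.51, interval -0.77 to -0.28), and its promoter went the other way, with 520 Wtap-CKO against 446 Wtapflox/flox reads (0.22, interval 0.04 to 0.41). An ESCRT-III gene on chromosome 18 had 114 Wtap-CKO against 160 Wtapflox/flox reads (-0.47, interval -0.85 to -0.13).

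The 2 genes past 1.5-fold higher differed in how many peaks were higher. A sterol transport gene on chromosome 4 (ENSMUSG00000028559) had 9 peaks beyond 1000 bp, between 108926393 and 109067748, with 789 Wtap-CKO reads and 505 Wtapflox/flox reads in all (log2 ratio 0.64, interval 0.48 to 0.81). Of the 9, 8 were higher in Wtap-CKO. They included a peak in intron 4 of 23 with 112 Wtap-CKO against 62 Wtapflox/flox reads (0.81), a peak 1628 bp from a start with 136 Wtap-CKO against 74 Wtapflox/flox reads (0.84) and a weak intergenic peak with 45 Wtap-CKO against 11 Wtapflox/flox reads (1.65, interval 1.06 to 3.14). Its 4 peaks within 1000 bp held 742 Wtap-CKO against 659 Wtapflox/flox reads (0.17, interval 0.02 to 0.33). The strongest of these (109058779 to 109059715) held 416 reads in each library. The other gene, of the Mon1-Ccz1 complex, which activates the late endosomal Rab GTPase, had a peak at -1251 bp from a start on chromosome 18 (12300098 to 12300523) with 120 Wtap-CKO reads and 59 Wtapflox/flox reads (0.97, interval 0.57 to 1.5). Its 4 promoter peaks held 661 Wtap-CKO against 668 Wtapflox/flox reads. On the same stretch of chromosome 18, a cholesterol transport gene of the list had a peak at 12329875 to 12330150 with 8.96 CPM in Wtap-CKO against 14.1 CPM in Wtapflox/flox (-0.63, interval -1.06 to -0.26). Summed over its 2 peaks beyond 1000 bp, that gene had 130 Wtap-CKO against 162 Wtapflox/flox reads, with an interval that spans 0 (-0.30, interval -0.66 to 0.03).

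Below these, a gene for protein targeting to lysosomes on chromosome 3 had 70 Wtap-CKO reads and 46 Wtapflox/flox reads (0.56, just short of 1.5-fold). An ESCRT-III gene on chromosome 6 had 91 Wtap-CKO against 61 Wtapflox/flox reads (0.54, interval 0.10 to 1.07), and the HOPS gene on chromosome 13 whose promoter was lower had 237 Wtap-CKO against 177 Wtapflox/flox reads over 4 peaks (0.41, interval 0.14 to 0.71). A ceramide binding gene of multivesicular bodies on chromosome 15 had 75 Wtap-CKO against 58 Wtapflox/flox reads (0.35, interval -0.14 to 0.89). Of the 6 genes with sterol terms, 5 were below 0 beyond 1000 bp and only the chromosome 4 gene above, with a median of -0.31. Their pooled reads, 2350 for Wtap-CKO and 2426 for Wtapflox/flox, gave -0.043, with an interval that spans 0 (-0.126 to 0.039). The 33 other genes with sterol terms had a median of 0.041. Among all genes with such peaks, 56.4% were above 0 and 43.6% below. Of the 6 members with the term endosome to lysosome transport, 4 were above 0, with a median of 0.48, against 0.04 for the 19 other genes with that term. Over the floor the medians were 0.41 for 5 members and 0.22 for 17 other genes. The highest of them, the small GTPase gene on chromosome 6, had 49 Wtap-CKO reads and 20 Wtapflox/flox reads (1.12) and lay under the floor.

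The ratios were lowest in the flanks of starts. Between 1000 and 3000 bp from a start, 19 of the genes had 27 peaks, with 2496 Wtap-CKO reads and 2874 Wtapflox/flox reads (pooled log2 ratio -0.20, interval -0.28 to -0.12). The median over these 19 genes was -0.30, with 13 below 0, against 0.055 for the 6402 genes with peaks there. Beyond 3000 bp the median of 44 genes was -0.057, with 21 above 0 and 23 below, against 0.064 for all genes. By feature, the 96 peaks in introns beyond 1000 bp had a median of -0.17, against 0.041 for all such intron peaks, and the 25 intergenic peaks one of 0.11, against 0.058. Near the 1000 bp limit itself, the last peaks inside, at 905, 957 and 986 bp, had ratios of 1.05, 0.25 and 0.47, and the first outside, at 1066, 1157 and 1218 bp, had 0.0027, 0.56 and 0.50.

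**Figure D4:**
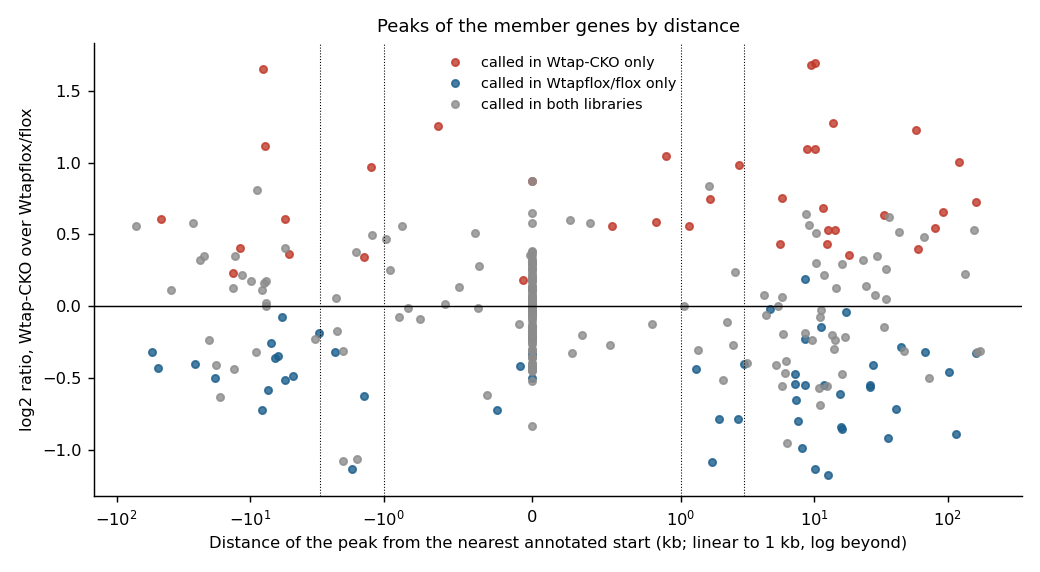
The Wtap-CKO to Wtapflox/flox log2 ratio (vertical axis) of the 287 peaks of late endosome membrane genes against their distance from the nearest annotated start (horizontal axis, in kb). Colours mark the library in which the authors called the peak, and dotted lines mark 1 and 3 kb. Of the 126 peaks within 1 kb of a start 111 were called in both libraries, and of the 161 beyond 82 were. Peaks called in 1 library lie mostly away from the starts.

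The authors' peak calls gave a like picture. Of the 126 promoter peaks of the list, 7 (5.56%) were called in Wtap-CKO only and 8 (6.35%) in Wtapflox/flox only, against 8.97% and 13.4% of all promoter peaks. Of the 161 peaks beyond 1000 bp, 31 (19.3%) were called in Wtap-CKO only and 48 (29.8%) in Wtapflox/flox only, against 20.9% and 24.2% of all such peaks. These calls come from the same reads as the counts and are no separate evidence. Over a floor of 3.92 mean CPM for single peaks, 9 of 113 distant peaks of the list were at least 1.5-fold higher and 15 at least 1.5-fold lower, against 15.4% and 9.4% of all such peaks. Of the 120 promoter peaks, 5 were higher and 2 lower, against 5.76% and 5.98%.

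Single peaks with at least the median signal showed both directions within a gene. A gene of slow endocytic recycling and membrane tubulation on chromosome 15 had a start peak (79015514 to 79016046) with 326 Wtap-CKO reads and 176 Wtapflox/flox reads (0.87, interval 0.62 to 1.16), and another start peak (78992748 to 78993452) with 222 Wtap-CKO against 294 Wtapflox/flox reads (-0.39, interval -0.66 to -0.15). Summed, its promoter signal was 908 Wtap-CKO against 834 Wtapflox/flox reads. The kinase activity gene on chromosome 11 had a peak in intron 3 of 7 (90146527 to 90146902) with 158 Wtap-CKO against 311 Wtapflox/flox reads (-0.95, interval -1.26 to -0.69), and weaker intronic peaks with 32 Wtap-CKO against 62 Wtapflox/flox reads and 40 Wtap-CKO against 61 Wtapflox/flox reads. Its 3 other distant peaks were higher in Wtap-CKO, the strongest with 146 Wtap-CKO against 123 Wtapflox/flox reads. In the authors' deposited table these peaks have log2 values of 0.67 for the first and -1.19 for the intron 3 peak.

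The lists of neighbouring compartments are given for comparison. Without the 90 genes, lysosomal membrane genes had medians of -0.018 at promoters (105 genes) and 0.067 beyond 1000 bp (68 genes). Early endosome membrane genes had -0.096 and 0.14, recycling endosome membrane genes -0.095 and 0.036, Golgi membrane genes -0.066 and 0.048, and endoplasmic reticulum membrane genes -0.065 and 0.10. Autophagosome membrane genes, with only 11 genes beyond 1000 bp, had -0.082 at promoters and -0.27 beyond, of which 5 genes lay above 0 and 6 below. Within the list, the 31 genes with the lysosomal membrane term had a median of -0.23 beyond 1000 bp and the 22 without it one of -0.064. None of these differences between lists was tested.

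**Figure D5:**
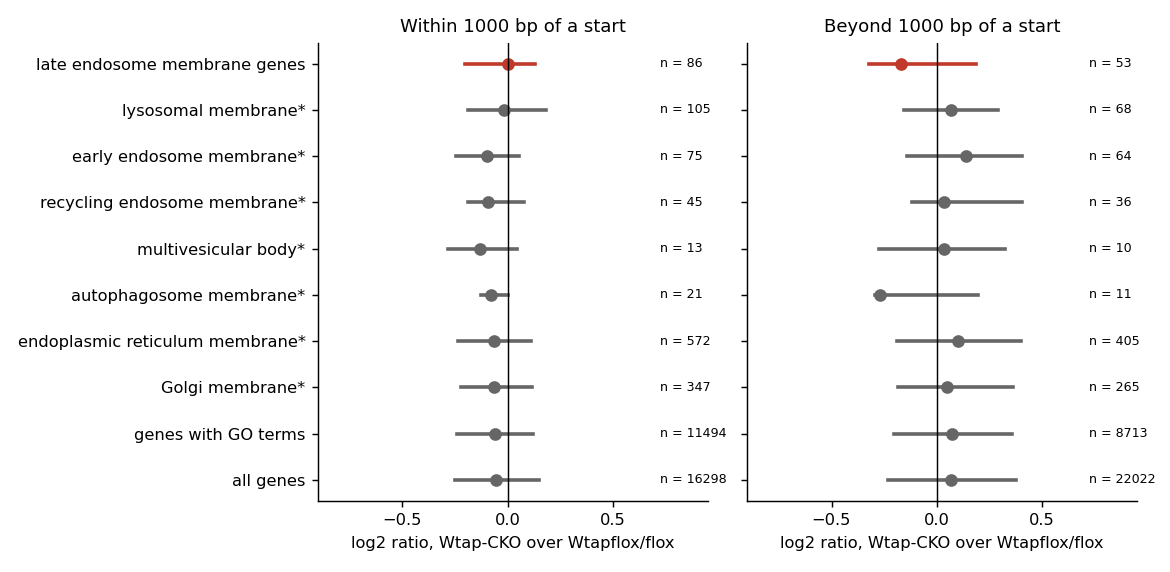
Median Wtap-CKO to Wtapflox/flox log2 ratio (points, horizontal axis) with its 25th and 75th percentiles over genes (lines) for late endosome membrane genes (red), lists of neighbouring compartments, genes with GO terms and all genes, from peaks within 1000 bp of a start (left) and beyond (right). An asterisk marks lists without the late endosome membrane genes, and n is the number of genes with such a peak. The red point lies near 0 on the left, at -0.00076, and at -0.17 on the right.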

How the data were processed

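The data are 1 ATAC-seq library per genotype, grouped by the genotype in the labels. Per the submitters' processing notes, the build was GRCm39 and the tools, listed with no roles, were HOMER 4.11, MACS2 2.1.0, ChIPseeker, BWA 0.7.12 and fastp 0.20.0. Read shifting for Tn5, duplicate removal and the calling threshold were not stated in the sources used here. If duplicates remain, the counting intervals are too narrow. The authors deposited counts as whole reads per merged peak and library. Judged from the values, the authors' deposited RPM is 0.01475 (Wtap-CKO) or 0.0171 (Wtapflox/flox) times the count plus 1. The deposited log2 value is the log2 ratio of these RPM, and the deposited fold enrichment, a ratio, was not used. Each peak also carries a + or - mark, another deposited column, for whether it was called in a library.

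Counts were summed per gene within and beyond 1000 bp of the nearest annotated start (Python 3.11.15, pandas 2.3.3, SciPy 1.17.1). The ratio, the interval and the fold limit were checked on simulated reads for the promoter sums only. These reads followed the binomial model that the interval assumes, so the check does not reach differences between pools or preparations. The genes named were the 10 highest and 10 lowest promoters over the floor, the 6 highest and 6 lowest genes beyond 1000 bp, the 5 promoters with most signal per kilobase and the 5 highest and 5 lowest peaks with at least the median signal. Other genes in the text were picked by role after their values were seen. The members and lists were chosen with earlier results of these data known. Groups by GO term beyond the planned complexes were added after the annotation had been read. Lists of symbols could not be used, since the IDs matched 0 entries of the reference table. GO terms of 1784 genes were left out of the table used here.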

Additional observations from a re-analysis of the deposited data

How the results depend on the processing

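No paired analysis was possible because each genotype has 1 library, and for the same reason no replicate was left out. Depth limits single genes: the floors lie near 9.67 and 5.10 CPM, and weak distant sums have wide intervals. Pseudocounts of 0.1 and 2 CPM, centring on the median of all peaks, a limit of 50000 bp, leaving out the 2 promoters with the most reads and keeping the 3 genes left out by other terms moved neither median beyond the counting error of the pooled reads, and kept each count within 1.5 times. That error is of summed reads and not of a median over genes. The quartiles of the genes ran from -0.20 to 0.13 at promoters and from -0.32 to 0.19 beyond 1000 bp. For every other change of setting the cause was not tested.

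With the authors' RPM, the promoter median was -0.22 (all genes -0.27) with 7 genes lower, and the distant median -0.39 (all genes -0.15) with 1 higher and 8 lower. The RPM moved 10 of 45 named values beyond their counting interval. Of the 45, 1 changed sign, the promoter of the endopeptidase gene on chromosome 4 (0.05 by reads in peaks, -0.16 by the RPM). Most of the 45 were named for high or low ratios, and some single peaks among them repeat a gene's value. Signs near 0 are less stable: of the 7 ESCRT-III promoters, 4 were above 0 by reads in peaks and 1 by the RPM. At promoters, 1 gene was higher without a floor, 0 were lower with a floor at the median, 2 were higher and 7 lower at the lower fold limit, and 0 lower at 2-fold. A 3000 bp window gave a median of -0.040 with 1 gene higher, and the nearest peak only gave -0.027 with 1 higher. Beyond 1000 bp, there were 5 higher and 5 lower without a floor, 1 and 1 with a floor at the median, 6 and 11 at the lower fold limit, and 0 higher at 2-fold. Peaks beyond 3000 bp gave a median of -0.057 with 1 higher. The genes at or above their own median signal, an alternative chosen after seeing the data, gave 1 higher and 1 lower with a median of -0.14.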

Other observations

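The 4 late endosome membrane genes with no promoter peak were a ubiquitin ligase gene of MHC class II presentation on chromosome 8 (19 Wtap-CKO reads against 25 Wtapflox/flox reads in 1 peak), a lysosomal calcium release channel gene on chromosome 3 (35 Wtap-CKO against 45 Wtapflox/flox reads), an autophagosome assembly gene on chromosome 3 (44 Wtap-CKO against 42 Wtapflox/flox reads) and a SNARE gene of Golgi and endosome traffic on chromosome 19. The SNARE gene had 15 peaks spread from 55315017 to 55545080, with 794 Wtap-CKO reads and 736 Wtapflox/flox reads (log2 ratio 0.11, interval -0.03 to 0.26).

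Retromer genes outside the list, which return cargo from endosomes, had a median of 0.53 beyond 1000 bp over 10 genes, against 0.065 for all genes. The 10 genes held 1737 Wtap-CKO reads and 1241 Wtapflox/flox reads there. Over the floor the retromer median was 0.47 for 9 genes, and at 14 promoters it was -0.012. Many other groups were looked at, and the difference was not tested. The 3 genes with the late endosome membrane term that the other terms left out had promoter ratios of -0.096, 0.024 and 0.026.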
